A study of Mus musculus with 6 samples.

Results

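Reg lectins and Paneth cell antimicrobial genes were followed in jejunal mucosa of mice with overactive SREBP2. The set held 9 genes, chosen by symbol: the lectin genes Reg1, Reg3a, Reg3b, Reg3g and Reg4, and Lyz1, Mmp7, Ang4 and Itln1 of Paneth cells. Each of the 9 had 1 row on the array, among 19938 genes tested. Mucosa had been scraped from the jejunum of C57/BL mice, 8 to 10 weeks old, that ate regular chow. The 3 arrays of the ISR2 group came from the transgenic line with intestine-specific overactivation of SREBP2, the transcription factor of cholesterol synthesis, and the 3 wild type arrays from littermates. The transgene's promoter and construct are not stated in the labels. Whether the arrays of a group are separate mice is not stated either, so the p-values cover only the spread between these samples, which may be technical.

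The small intestine keeps bacteria away from its surface with secreted proteins. Reg proteins are small C-type lectins. Reg3b and Reg3g kill or bind bacteria, are made by enterocytes and Paneth cells, and are induced by bacterial signals through MyD88 and through IL-22 and STAT3. Paneth cells at the crypt base store lysozyme, alpha-defensins and other antimicrobial proteins in granules and release them into the crypt.

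Values are log2 RMA expression values as deposited by the authors, where a difference of 1 is a 2-fold difference. RMA values of different genes depend on their probes, so levels were compared between arrays and not between genes. The values of the table ran from 1.44 to 14.8. Srebf2, which encodes SREBP2, was at 9.04 to 9.50 in wild type and 10.85 to 11.16 in ISR2, so the arrays followed their labels. All 16 measured genes of the SREBP2 pathway list rose. Taken over genes, which are no replicates of each other, Pearson's r between arrays was 0.978 to 0.991 within a group and 0.970 to 0.982 between groups. Over all genes the median log2 change was -0.06. The number of arrays limits the precision.

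Of the 9 genes, 2 fell, Reg1 and Reg3a, and none rose (limma, adjusted p under 0.05 over all genes tested). Over all genes, 3.02% passed in either direction, 1.23% lower and 1.79% higher. At an unadjusted p of 0.05 the counts were 5 lower and 0 higher, against 8.4% and 4.73% of all genes. All 9 estimates were below 0, as were those of 62.6% of all genes, and the median log2 change of the 9 was -0.55. The shares of all genes given here are also the background for the counts of the other lists below. Over the arrays Reg1 varied with Reg3a, Reg3b with Reg3g, and the 4 Paneth cell genes were all lowest on ISR2 replicate 2, while Reg4 was lowest on ISR2 replicate 1.

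**Figure D1:**
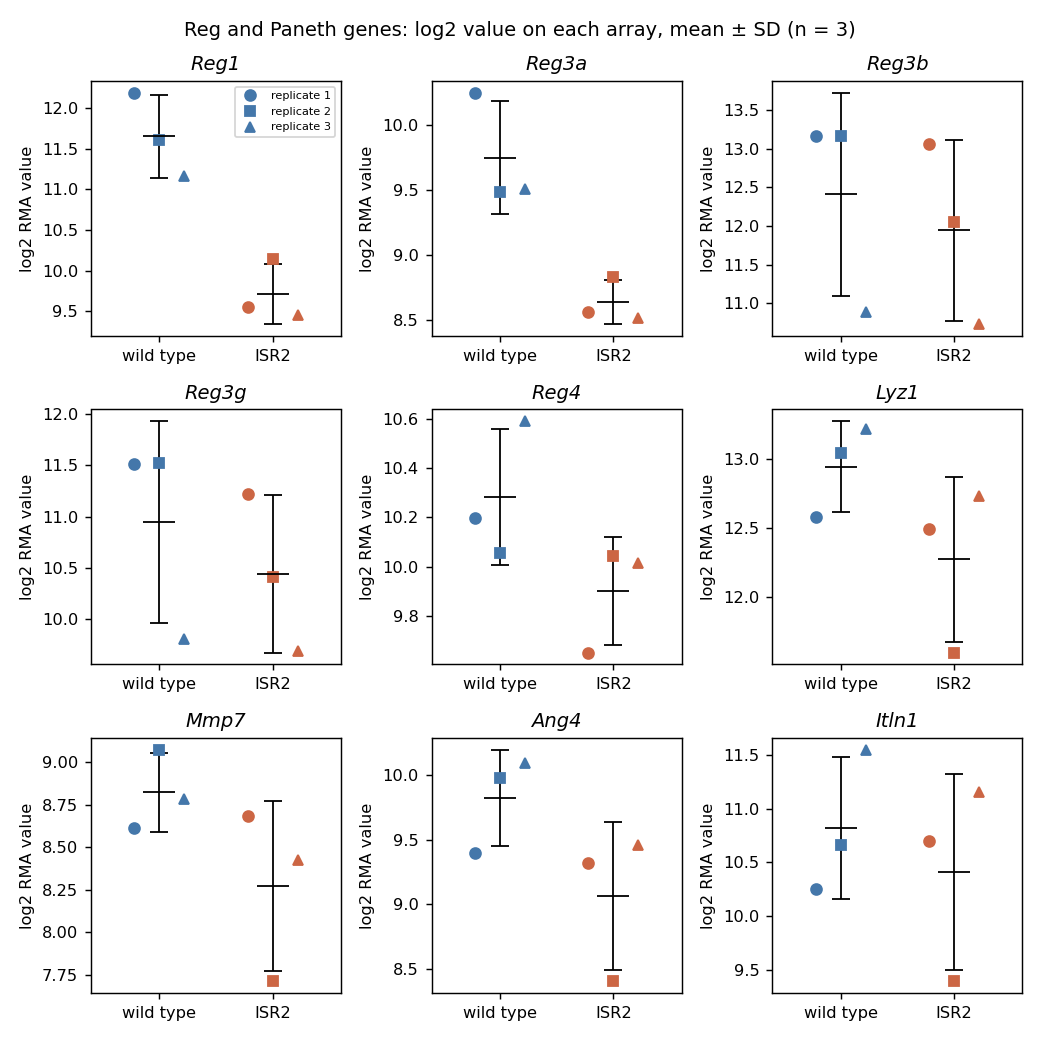
Log2 RMA value (vertical axis, a separate range for each gene) of the 9 genes on each wild type and ISR2 array; the bar is the mean and the whiskers the SD of 3 arrays. Reg1 and Reg3a have all ISR2 arrays well below the wild type arrays, Reg3b and Reg3g are low on replicate 3 of both groups, and the 4 Paneth cell genes are lowest on ISR2 replicate 2.

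Reg1, Reg2, Reg3a, Reg3b, Reg3d and Reg3g are consecutive protein-coding genes on chromosome 6 in RefSeq's GRCm38.p6 annotation, in the order Reg3b, Reg3d, Reg3a, Reg2, Reg1, Reg3g. Reg4 lies on chromosome 3, Itln1 on chromosome 1, Mmp7 on chromosome 9, Lyz1 on chromosome 10 and Ang4 on chromosome 14. The 250 bases before the start are shown for the pair that fell and the pair that varied together, since each pair shared its pattern over the arrays. They are RefSeq sequences of GRCm38.p6, at chr6:78425733-78425982 (plus strand) for Reg1, chr6:78380459-78380708 (plus) for Reg3a, chr6:78370635-78370884 (plus) for Reg3b and chr6:78468875-78469124 (minus) for Reg3g, written 5′ to 3′ along the gene. Capitals mark the motifs found by letters on either strand.
Reg1: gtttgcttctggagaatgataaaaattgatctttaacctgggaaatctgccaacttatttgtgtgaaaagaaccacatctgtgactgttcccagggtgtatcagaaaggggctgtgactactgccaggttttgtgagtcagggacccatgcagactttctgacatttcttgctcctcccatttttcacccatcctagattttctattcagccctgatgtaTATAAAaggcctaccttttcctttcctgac
Reg3a: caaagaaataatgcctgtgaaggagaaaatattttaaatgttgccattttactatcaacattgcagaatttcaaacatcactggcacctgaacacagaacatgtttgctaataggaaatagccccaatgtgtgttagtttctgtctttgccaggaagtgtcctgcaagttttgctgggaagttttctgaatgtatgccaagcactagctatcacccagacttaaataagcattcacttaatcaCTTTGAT
Reg3b: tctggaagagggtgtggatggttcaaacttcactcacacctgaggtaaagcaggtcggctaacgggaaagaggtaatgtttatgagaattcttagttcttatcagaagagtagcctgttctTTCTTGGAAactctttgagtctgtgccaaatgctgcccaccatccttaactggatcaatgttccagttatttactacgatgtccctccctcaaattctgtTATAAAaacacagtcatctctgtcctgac
Reg3g: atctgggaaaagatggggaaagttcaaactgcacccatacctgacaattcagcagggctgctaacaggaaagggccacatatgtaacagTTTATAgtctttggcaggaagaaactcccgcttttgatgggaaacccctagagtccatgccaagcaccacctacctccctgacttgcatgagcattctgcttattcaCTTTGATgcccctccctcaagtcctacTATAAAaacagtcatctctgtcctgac
The motifs searched were the core promoter box TATAAA, TTCNNNGAA (the letters bound by STAT factors), TCACNCCAC (a sterol regulatory element, bound by SREBP) and CTTTGAT (bound by TCF factors of the Wnt pathway). TATAAA, present in 12.4% of all 32851 RefSeq windows of this length, began 30 bases before the start of Reg1, 29 before Reg3b and 27 before Reg3g; the letters for Reg3g at 161 to 156 bases before the start are on the other strand. TTCNNNGAA, in 7.02% of windows, was found as TTCTTGGAA 129 to 121 bases before Reg3b and in none of the other sequences printed here. Among the remaining genes of the set Ang4 held it, as TTCCCTGAA. CTTTGAT, in 3.21% of windows, was found in Reg3a, ending on the last base before the start, in Reg3g and, on the other strand, in a window of Mmp7. That Mmp7 window, chr9:7692091-7692340 (plus), belongs to a later start. It lies downstream of the gene's other window, chr9:7691840-7692089, and so past the first start. TCACNCCAC, in 1.05% of windows, was found in none of the windows of the 9 genes. Aligned end to end, the Reg3b and Reg3g sequences were identical at 173 of 253 alignment positions (68.4%), against 49.5% for Reg1 and Reg3a and 47.2% for Reg1 and the unrelated Lyz1. The motif matches are descriptions of letters.

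Reg1, also known as a pancreatic stone protein gene, stood at 12.19, 11.60 and 11.17 on wild type replicates 1, 2 and 3. On ISR2 replicates 1, 2 and 3 it stood at 9.55, 10.14 and 9.45. The groups did not overlap, and the gap between them, 1.03, was as wide as the spread of the wild type arrays, 1.02. The log2 value of Reg1 fell by 1.94 (SE 0.27, n = 3 per group; limma, adjusted p = 0.00427), which is 3.83-fold lower with a 95% interval from 2.52 to 5.84. Its call held without each array in turn, with adjusted p from 0.00254 to 0.0328 in limma. A log2 change of -1 or lower was measured for 0.622% of all genes.

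Reg3a, a lectin of the Reg3 group, was 10.25, 9.49 and 9.51 on the wild type arrays. It was 8.57, 8.84 and 8.52 on the ISR2 arrays, again with no overlap. Reg3a fell by 1.11 (SE 0.21; limma, adjusted p = 0.0247), which is 2.16-fold lower (95% interval 1.55 to 3.01). Its call was lost without ISR2 replicate 1 (adjusted p = 0.126) or ISR2 replicate 3 (adjusted p = 0.0893), with log2 changes of -1.07 and -1.05. It was also lost when all 35556 rows of the table were tested (adjusted p = 0.0852). Wild type replicate 1 was the highest array and ISR2 replicate 3 the lowest for both Reg1 and Reg3a. Over the 6 arrays Pearson's r between Reg1 and Reg3a was 0.979, and 0.889 after each group's mean was taken away; as for all such values here, the points share arrays and normalization.

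Reg3b was at 13.17, 13.17 and 10.89 on the wild type arrays, and at 13.06, 12.04 and 10.73 on the ISR2 arrays. Replicate 3 was the lowest array of both groups, and the groups overlapped almost fully. The log2 change was -0.46 ± 0.69 (SE; limma, adjusted p = 0.852), with a 95% interval from -2.01 to 1.09, so a fall or a rise of 2-fold lies within it. Leaving out wild type replicate 3 gave an estimate of -1.22, and leaving out ISR2 replicate 3 gave 0.14.

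Reg3g, which acts on Gram-positive bacteria, was at 11.51, 11.52 and 9.81 on the wild type arrays. On the ISR2 arrays it was at 11.22, 10.41 and 9.69. The order of the arrays was the same as for Reg3b. The log2 change of Reg3g was -0.51 ± 0.49 (SE; limma, adjusted p = 0.749; 95% interval -1.62 to 0.61), and it became -1.08 and -0.13 when the same arrays were left out in turn. Pearson's r between Reg3b and Reg3g over the 6 arrays was 0.989, and 0.995 after each group's mean was taken away. With Reg1, Reg3b and Reg3g had r of 0.407 and 0.496. Reg3b spanned 2.28 within wild type and 2.33 within ISR2, more than any other of the 9 genes in either group. What sets replicate 3 apart in these genes was not tested.

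Reg4, expressed in enteroendocrine and other secretory cells, was at 10.20, 10.06 and 10.59 on the wild type arrays. It was at 9.65, 10.04 and 10.01 on the ISR2 arrays. The groups did not overlap, but the gap was 0.013. Such separation with ISR2 below held for 3 of the 9 genes and 13.9% of all genes, and with ISR2 above for none of the 9 and 5.87% of all genes. The log2 change was -0.38 ± 0.18 (SE; limma, adjusted p = 0.412; 95% interval -0.78 to 0.02). Within groups Reg4 ran opposite to Reg3g (Pearson's r -0.923 over the 6 arrays after each group's mean was taken away). By the same measure Reg1 ran opposite to the Paneth cell genes Itln1 (r -0.927), Ang4 (-0.917), Lyz1 (-0.899) and Mmp7 (-0.643). Of 17 enteroendocrine genes measured, none passed in limma and 2 were lower at an unadjusted p of 0.05. Chga, the chromogranin A gene that marks these cells, was 9.07 ± 0.37 in wild type and 8.94 ± 0.41 in ISR2 (mean ± SD, n = 3). Gip and Ghrl, which encode hormones, had the smallest p of that list, with log2 changes of -0.34 and -0.29.

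The other members of the Reg cluster had low values. Reg2 was at 4.45 to 4.77 in wild type and 3.98 to 4.55 in ISR2, and Reg3d at 4.81 to 5.05 and 4.59 to 4.77. Neither passed (limma, adjusted p = 0.48 and 0.455), and no background value shows that either was detected.

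**Figure D2:**
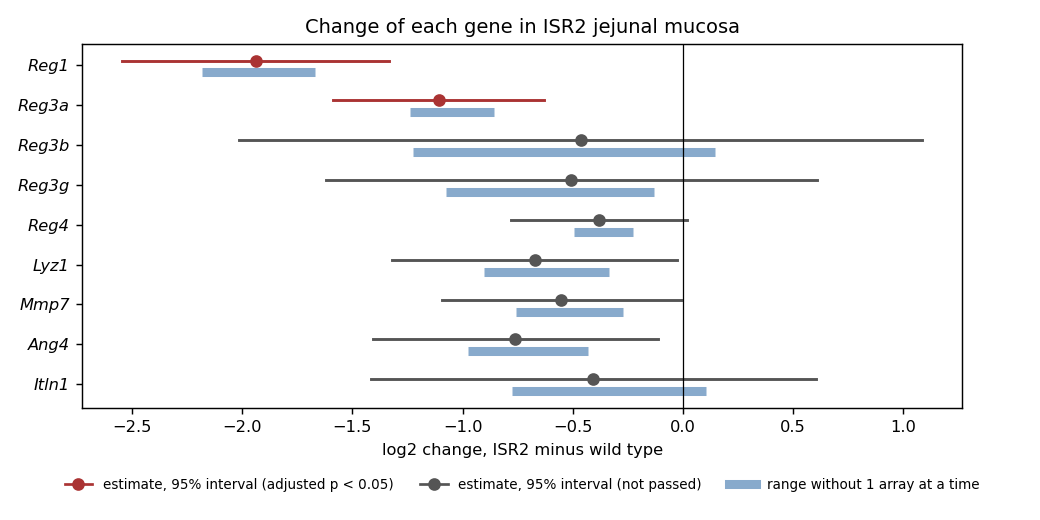
Log2 change of each gene, ISR2 minus wild type (horizontal axis), with its 95% interval in limma, and below it the range of the estimate when 1 array at a time was left out. Reg1 and Reg3a, in red, passed an adjusted p of 0.05; the ranges of Reg3b and Itln1 cross 0.

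None of the 4 Paneth cell genes passed in limma, and 3 of them were lower at an unadjusted p of 0.05, as were 8.4% of all genes. Lyz1, the Paneth cell lysozyme that cuts bacterial cell walls, was at 12.58, 13.04 and 13.21 on the wild type arrays. It was at 12.49, 11.59 and 12.73 on the ISR2 arrays, so ISR2 replicate 2 was the lowest and the groups overlapped. The log2 change was -0.67 ± 0.29 (SE; limma, adjusted p = 0.36; 95% interval -1.32 to -0.03). Lyz2, its close paralog, which macrophages also express, had a log2 change of -0.59 ± 0.23 (SE), and signal shared between the probes of the pair cannot be told apart here.

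Ang4, a ribonuclease-family antimicrobial protein, was at 9.40, 9.98 and 10.09 on the wild type arrays. It was at 9.32, 8.40 and 9.46 on the ISR2 arrays. Its arrays stood in the same order as those of Lyz1, with r of 0.995 over the 6 arrays. The log2 change of Ang4 was -0.76 ± 0.29 (SE; limma, adjusted p = 0.283; 95% interval -1.41 to -0.11).

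Mmp7, the protease that activates mouse alpha-defensins, was at 8.61, 9.07 and 8.78 on the wild type arrays. It was at 8.68, 7.71 and 8.42 on the ISR2 arrays, where replicate 2 was again the lowest. The log2 change was -0.55 ± 0.24 (SE; limma, adjusted p = 0.373; 95% interval -1.09 to -0.01).

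Itln1, which encodes intelectin, a lectin that binds microbial sugars and is also made by goblet cells, was at 10.25, 10.66 and 11.55 on the wild type arrays. It was at 10.69, 9.39 and 11.15 on the ISR2 arrays. The log2 change was -0.41 ± 0.45 (SE; limma, adjusted p = 0.786; 95% interval -1.42 to 0.60). Without ISR2 replicate 2 the estimates of Lyz1, Ang4, Mmp7 and Itln1 were -0.33, -0.43, -0.27 and 0.10, nearer to 0 for the first 3 and of the opposite sign for Itln1.

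**Figure D3:**
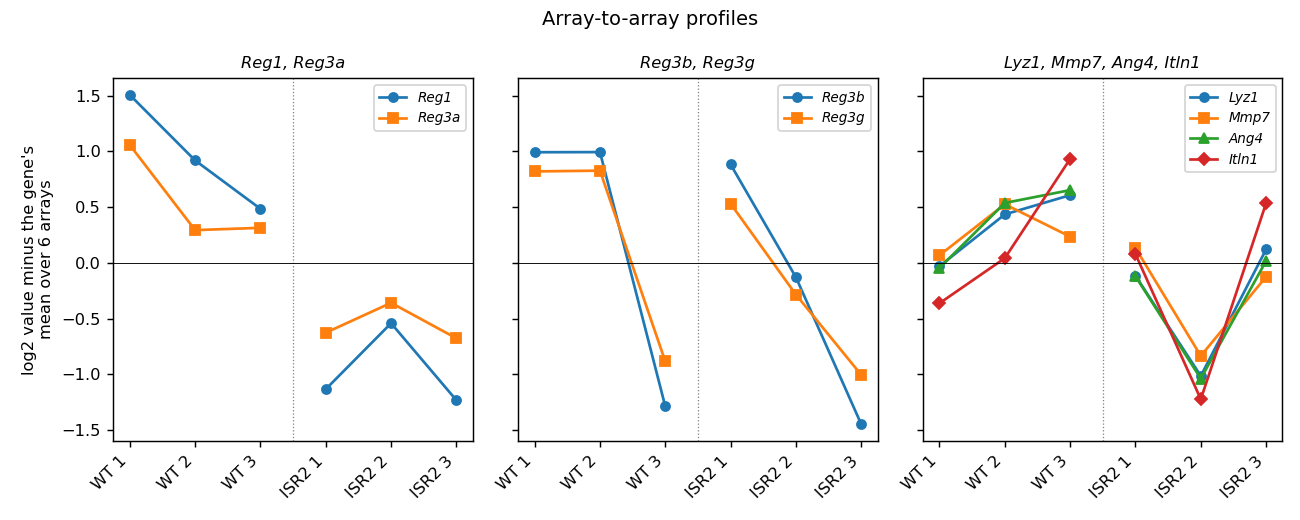
Log2 value minus the gene's own mean over the 6 arrays (vertical axis) for 3 sets of genes on each array (horizontal axis); lines join arrays of a group for the eye, since replicates have no order. Reg1 and Reg3a are low on all ISR2 arrays, Reg3b and Reg3g on wild type replicate 3 and ISR2 replicate 3, and the Paneth cell genes on ISR2 replicate 2.

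The mean of other Paneth cell genes was also lowest on ISR2 replicate 2, at 7.12 against 7.56 to 7.87 on the other arrays. Of 21 measured beyond the set, 20 had estimates below 0, as did 62.6% of all genes, and 1, Spink4, fell. The median log2 change was -0.26, and 4 were lower at an unadjusted p of 0.05, as were 8.4% of all genes. Spink4, a protease inhibitor gene also of goblet cells, fell by 0.62 (SE 0.13; limma, adjusted p = 0.0445), from 11.43 to 11.73 in wild type to 10.88 to 11.11 in ISR2. Its call was lost in each of the 6 fits without 1 array (adjusted p up to 0.16), after median centring, with all rows tested, with the replicate number as a block and with wild type replicate 3 and ISR2 replicate 2 both left out. Defa24, an alpha-defensin and the only listed alpha-defensin gene with a row of its own, was at 12.52, 12.94 and 13.09 in wild type and 12.46, 12.08 and 12.93 in ISR2 (log2 change -0.36 ± 0.23, SE; limma, adjusted p = 0.587). Defensin rows shared by several genes were not used.

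In whole mucosa, fewer cells of a type and less RNA per cell cannot be told apart. The mean of the 4 Paneth cell genes was 10.21, 10.69 and 10.91 on the wild type arrays and 10.30, 9.28 and 10.44 on the ISR2 arrays. The mean of 13 stem cell genes, which mark the neighbouring crypt base cells, was 7.45, 7.79 and 8.00 in wild type and 7.71, 7.16 and 8.00 in ISR2, also lowest on ISR2 replicate 2. Of these stem cell genes none passed in limma, and 12 of 13 had estimates below 0, as did 62.6% of all genes. Their median log2 change was -0.07, close to the -0.06 of all genes. Of the 13, 1, Rnf43, was lower at an unadjusted p of 0.05, as were 8.4% of all genes. Rnf43, a Wnt feedback gene, and Ascl2, a stem cell transcription factor, had log2 changes of -0.40 and -0.44. The mean of 15 goblet cell genes was 9.57 to 9.91 in wild type and 9.40 to 9.58 in ISR2, where 1 fell, again Spink4, and Muc2, the main mucin gene of goblet cells, differed by -0.03. The mean of 15 myeloid genes was 6.49 to 6.75 in wild type and 6.16 to 6.65 in ISR2, lowest on ISR2 replicate 2; none fell in limma, 2 were lower at an unadjusted p of 0.05, and Cd14, the lipopolysaccharide co-receptor gene, rose 2.23-fold. The mean of 15 smooth muscle and stroma genes was 6.93, 8.86 and 7.39 on the wild type arrays and 7.67, 8.34 and 7.53 on the ISR2 arrays, so it was highest on replicate 2 of both groups. On ISR2 replicate 2 the muscle genes Des and Acta2 stood at 10.52 and 11.38, against 7.93 and 9.36 on ISR2 replicate 1 and 8.26 and 9.33 on ISR2 replicate 3. On wild type replicate 2 they stood higher still, at 11.58 and 12.14, against 7.45 and 8.16 on wild type replicate 1 and 8.04 and 9.38 on wild type replicate 3. The mean of the 4 Paneth cell genes on wild type replicate 2, 10.69, lay between those of the other wild type arrays. A low ISR2 replicate 2 was not particular to crypt genes. It was also the lowest array for the list mean of IL-22 and STAT3 genes (6.88, next 6.96). For enteroendocrine genes it was lowest only narrowly (7.295, against 7.308 on ISR2 replicate 1). It was lowest for B and plasma cell genes (6.34, next 6.62) and other antimicrobial genes (7.02, next 7.08). For acinar genes ISR2 replicates 2 and 3 were nearly equal (6.486 and 6.492). The acinar list shares Clps with the Paneth cell list, and the list of other antimicrobial genes shares Pla2g2a with it. Clps was at 10.04 on ISR2 replicate 2 and 11.16 on ISR2 replicate 3, and Pla2g2a at 6.08 and 7.72. The part of crypt content or of muscle in the values of the Paneth cell genes was not tested.

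Like Reg1 and Reg3a, several list means were lower on every ISR2 array than on any wild type array. Besides the lists described next, this held for other epithelial antimicrobial genes (7.30 to 7.34 in wild type, 7.02 to 7.27 in ISR2). It also held, barely, for Brunner gland and duodenal genes (6.873 to 6.988 and 6.678 to 6.862). Reg2 with Reg3d, whose values were low, also showed it (4.63 to 4.91 and 4.29 to 4.57). Among single genes, such separation was found for 13.9% of all genes. The mean of 13 villus tip genes was 10.15 to 10.36 in wild type and 9.06, 9.56 and 8.63 on ISR2 replicates 1, 2 and 3, the same order as Reg1 within that group. In this list 4 fell, Ada, Nt5e, Slc28a2 and Enpp3, which encode enzymes of nucleotide breakdown and, for Slc28a2, a nucleoside transporter, and the count was 2 without wild type replicate 1 or ISR2 replicate 1. Among 15 enterocyte genes 3 fell, Slc15a1, Treh and Alpi, with means of 12.85 to 12.90 in wild type and 12.43 to 12.67 in ISR2; leaving out wild type replicate 1 or ISR2 replicate 1 gave 1, and leaving out ISR2 replicate 2 gave 5. Among 14 T cell and intraepithelial lymphocyte genes 6 fell, Cd7, Gzmb, Cd3e, Cd8a, Ccl5 and Cd3g, with means of 7.35 to 7.81 in wild type and 6.53 to 7.01 in ISR2; leaving out ISR2 replicate 3 or either of wild type replicates 1 and 2 gave 3. Reg1 is also a gene of pancreatic acinar cells: of 21 acinar genes none passed in limma, 3 were lower at an unadjusted p of 0.05, and the list means were 6.71 to 6.82 in wild type and 6.49 to 6.57 in ISR2. Cela3b, an acinar elastase gene, was at 5.37 to 5.70 in wild type and 5.14 to 5.43 in ISR2, and Ctrc and Spink1 had the smallest p of the list (log2 changes -0.46 and -0.98). Spink1 passed over all 6 arrays with the replicate number as a block (log2 change -0.98, limma, adjusted p = 0.00652). It also passed when wild type replicate 3 and ISR2 replicate 2 were both left out (log2 change -1.60, limma, adjusted p = 0.0157). The part of these cell types in the fall of Reg1 and Reg3a was not tested.

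**Figure D4:**
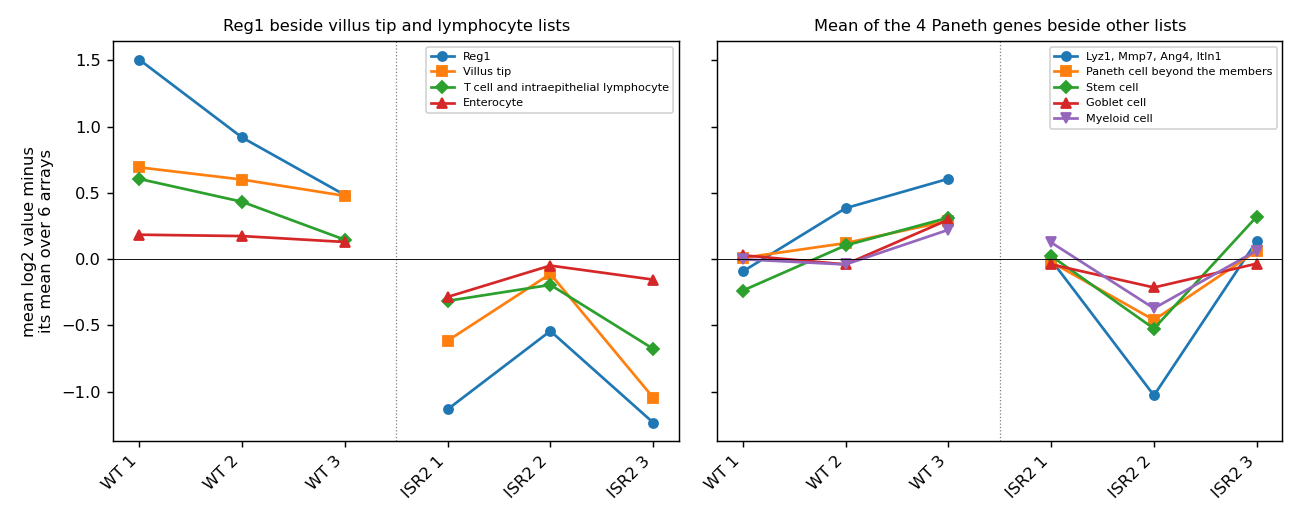
Mean log2 value of gene lists minus their mean over the 6 arrays (vertical axis) on each array (horizontal axis), beside Reg1 (left) and the mean of the 4 Paneth cell genes (right); lines join arrays of a group for the eye. On the left every series is lower on the ISR2 arrays, and on the right ISR2 replicate 2 is the lowest array of every series. Lists not drawn were lowest on that array too, among them B and plasma cell genes and, by a narrow margin, enteroendocrine and acinar genes. The smooth muscle and stroma list, also not drawn, was highest on replicate 2 of both groups.

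Of 29 measured genes of IL-22, STAT3 and bacterial sensing, none passed in limma, 3 were lower at an unadjusted p of 0.05, and the median log2 change was -0.12. Without ISR2 replicate 2, 1 of them passed: Tyk2, a kinase gene of cytokine receptors, with a log2 change of 0.61 (limma, adjusted p = 0.0401). Il22ra1, the epithelial IL-22 receptor subunit, was at 11.09, 10.93 and 11.04 in wild type and 10.63, 10.81 and 10.48 in ISR2 (log2 change -0.38 ± 0.13, SE; limma, adjusted p = 0.246). Stat3 was 9.69 ± 0.09 in wild type and 9.61 ± 0.12 in ISR2 (mean ± SD, n = 3). Ticam1, an adaptor of Toll-like receptors, had a log2 change of -0.39. Socs3, a STAT3 target that feeds back on it, was at 8.76, 8.31 and 7.69 in wild type and 8.30, 7.65 and 7.80 in ISR2.

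Of 31 other epithelial antimicrobial genes, 2 fell and none rose. Nos2, whose product makes nitric oxide from arginine on induction, fell by 1.56 (SE 0.25; limma, adjusted p = 0.00893), from 6.82, 6.62 and 7.67 to 5.63, 5.36 and 5.43. Lgals3, which encodes galectin-3, fell by 1.19 (SE 0.21; limma, adjusted p = 0.0176), from 11.72, 11.58 and 11.76 to 10.52, 10.94 and 10.02. The call of Lgals3 was lost in the fits that left out ISR2 replicate 1 or any single wild type array (adjusted p up to 0.0882). Duox2, an oxidase that makes hydrogen peroxide, was at 7.11, 7.29 and 6.68 in wild type and 7.36, 6.09 and 6.30 in ISR2, with overlap. Pigr, the receptor that carries IgA across the epithelium, was 12.74 ± 0.06 and 12.49 ± 0.14 (mean ± SD, n = 3).

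The genes whose array values most resembled each of the 9 were found by Pearson's r over the 6 arrays among 1606 genes with an SD of at least 0.4. For Reg1 they were Rab39b, Rdh9 and C8g, with r from 0.997 to 0.999, and all 3 stood in the same array order as Reg1; Rdh9, a retinol dehydrogenase gene, was 9.10 on average in wild type and 7.52 in ISR2. For Reg3a they were Proz, Rdh16f2 and Psmb8 (r 0.986 to 0.991). For Reg3b they were Ptk6, Pdgfc and Ypel1 (r 0.910 to 0.925) and for Reg3g Ptk6, Ypel1 and Zfp617 (r 0.930 to 0.946), so that Ptk6, an epithelial tyrosine kinase gene, led both. For Reg4 they were Lrfn3, Irf2bpl and Mab21l4 (r 0.903 to 0.916). Ccl28, a chemokine gene of mucosal epithelia, led for both Lyz1 and Ang4 (r 0.984 each), and Lcp1 was among the first 3 for both. The remaining genes were Hpd for Lyz1 and Lyz2 for Ang4. For Mmp7 they were Parp8, Ncf4 and Plcg2 (r 0.958 to 0.998), and for Itln1 Knstrn, Prr11 and Pnliprp2 (r 0.995 to 0.999). With 6 arrays and many candidate genes, high values are found for any profile, and they are given as a description.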

How the data were processed

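The labels give total RNA from jejunal mucosal scrapings, labelled by the Affymetrix WT protocol. The authors deposited log2 values and used RMA, as the submitters' processing notes state; the scale was inferred from the range of the values. No source used here names the RMA version, filters or a build. RMA equalises the distributions of the arrays, so changes are relative to the bulk of genes, and background left in dim genes compresses their changes.

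Of 35556 rows, 21789 had 1 gene symbol, 1621 several and 12146 none; rows with 1 symbol were tested, the row with the highest mean over the 6 arrays standing for each gene. Groups came from the sample titles. ISR2 was compared with wild type in limma 3.58.1 (lmFit, then eBayes; R 4.3.3) over all 6 arrays, two-sided, with Benjamini-Hochberg adjustment over all genes. The fit was tested on simulated data. Genes named were the 9, Reg2, Reg3d, Srebf2, the called genes or the 2 with the smallest p of each list, and the 3 genes most like each member. Where a list's text names others (Chga, Cela3b, Muc2, Stat3, Socs3, Duox2, Pigr, Lyz2, Defa24, Des, Acta2, Tyk2, Cubn), they were chosen after their values were seen. Members and lists were chosen with earlier results of these data known. Alternatives were other variance models, array weights, scalings, a filter at a mean of 6, other row choices, a replicate block, 2 other thresholds and 1 array left out at a time; leaving out both ISR2 replicate 2 and wild type replicate 3 was chosen after seeing the data.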

Additional observations from a re-analysis of the deposited data

How the results depend on the processing

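The count of 2 members lower held with eBayes with a trend or robust, array weights, median centring, quantile normalization, the filter at a mean of 6, the mean of a gene's rows, an adjusted p of 0.10 and with ISR2 replicate 2 and wild type replicate 3 both left out. It was 1 with all rows tested, 5 at an unadjusted p of 0.05, and 1 to 2 without 1 array at a time; no member was higher under any of them. Reg1 passed in all 16 alternative fits and Reg3a in 13. Reg3b turned to 0.16 with array weights and 0.14 without ISR2 replicate 3. Itln1 turned to 0.10 without ISR2 replicate 2 and to 0.47 with that array and wild type replicate 3 both left out. Over all fits without 1 or 2 arrays, Reg3b ranged from -1.28 to 0.14 and Itln1 from -0.78 to 0.47. The cause was not tested. The median change of the members was -0.89 without ISR2 replicate 1, -0.78 without ISR2 replicate 3 and -0.30 with ISR2 replicate 2 and wild type replicate 3 both left out. Over all genes 246 fell and 356 rose; 638 and 630 with array weights, 91 and 249 with all rows tested, 386 and 451 at an adjusted p of 0.10, and 85 to 236 and 236 to 353 without 1 array at a time. Deviations of wild type and ISR2 arrays with the same number correlated at -0.02, 0.32 and 0.54 for replicates 1, 2 and 3. Those of arrays with different numbers correlated at -0.54 to 0.20. These lay below the values of replicates 2 and 3, but the value of replicate 1 lay within their range. The deviations of a group sum to 0, so positive values for equal numbers push those for different numbers down. The 2 sets of values are therefore not independent. The numbers were not taken as pairs in the main fit, and whether arrays of the same number were handled together was not tested. With the replicate number as a block 2 members were lower, and 352 of all genes fell and 426 rose.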

Other observations

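Genes of neighbouring gut segments and other tissue layers were also measured. Of 10 B and plasma cell genes none passed in limma and 2 were lower at an unadjusted p of 0.05; the list means were 6.98 to 7.17 on the wild type arrays and 7.16, 6.34 and 6.62 on the ISR2 arrays, lowest on ISR2 replicate 2, the array that was also lowest for the Paneth cell genes. Prdm1, a regulator of plasma cells, and Cd79a, a B cell receptor chain, had the smallest p, with log2 changes of -0.65 and -0.60. With the replicate number as a block Prdm1 passed (limma, adjusted p = 0.0492). Among 15 smooth muscle and stroma genes none passed and 0 were past an unadjusted p of 0.05, and Kdr and Col1a1 had log2 changes of 0.70 and 0.25. Without ISR2 replicate 2, on which the muscle genes were high, Kdr passed (log2 change 1.13; limma, adjusted p = 0.00606). Among 6 duodenal and Brunner gland genes none passed and 1, Tff2, was lower at an unadjusted p of 0.05 (log2 change -0.43); Gata4 differed by -0.27. Among 5 ileal genes Slc10a2, the bile acid transporter, rose 2.02-fold. Its values were low, at 4.51 to 4.81 in wild type and 5.48 to 5.78 in ISR2, and no background value shows that it was detected. Cubn, the cobalamin receptor, had a log2 change of -1.09 (limma, adjusted p = 0.0625). It passed without ISR2 replicate 2 (limma, adjusted p = 0.00763) and with the replicate number as a block (limma, adjusted p = 0.0249).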
